A study of Mus musculus with 59 samples.

Results

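The 59 prefrontal cortex libraries of this mouse study differed widely in the RNA of 3 genes that mark the output neurons of the olfactory bulb. Each library was scored by the mean of log2(normalized count + 1) of Cdhr1, a cadherin-related protein of mitral and tufted neurons, and of Tbx21 and Eomes, T-box transcription factors of the same neurons. The 15 libraries with the highest score are called bulb-rich and the 15 with the lowest bulb-poor, so 30 of 59 libraries entered the 2 sets and 29 lay between them. These 3 genes and the whole bulb-rich against bulb-poor contrast chose the libraries, so differences between the sets are given as a description with no test: the members were chosen by measured values. Tests were run only on the labels, on the 29 libraries between, and on the labelled comparisons of the study.

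The olfactory bulb sits in front of the prefrontal cortex and receives the axons of sensory neurons from the nose. Its mitral and tufted neurons are glutamatergic and carry the signal onward, while its granule and periglomerular neurons are GABAergic, some of the latter also dopaminergic, and are renewed after birth by neuroblasts that migrate from the ventricular wall. Olfactory ensheathing glia wrap the sensory axons as they enter the bulb.

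All libraries carried the tissue label prefrontal cortex and came from C57BL/6J mice on postnatal day 25. The pups had been exposed through maternal milk, from day 3 to day 24, to vehicle, to fluoxetine, which blocks serotonin reuptake, or to lithium, a mood stabilizer. The labels name the allele Chd8-S62X, at a gene for a chromatin remodeller, and give each library as heterozygous (HT) or wild type (WT), with its sex and a replicate number. Each of the 12 groups of genotype, treatment and sex held 5 libraries, except the HT females given fluoxetine with 4. Nothing in the labels says that the libraries came from separate animals or litters, so a p-value here covers the spread among libraries, which may be technical. The values are normalized counts; they summed to 30.3 to 33.3 M in the bulb-rich and 32.8 to 33.5 M in the bulb-poor libraries. The original depth was estimated at 29.2 to 36.9 M and 29.6 to 36.2 M reads, and 22528 to 23544 and 22561 to 23332 genes were detected.

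The score ran from 3.69 to 10.8 with a median of 7.85. It lay between 9.28 and 10.8 in the bulb-rich libraries (median 10.1) and between 3.69 and 5.28 in the bulb-poor ones (median 4.50). Cdhr1 stood at 2824 to 8300 normalized counts in the bulb-rich libraries and at 97.2 to 350 in the bulb-poor ones. Tbx21 ran from 162 to 456 against 1.88 to 7.42, and Eomes from 497 to 1433 against 2.15 to 21.6. The cut at the top fell in a nearly continuous run: the last bulb-rich library, WT-labelled lithium female replicate 5, scored 9.28, and the next, HT-labelled lithium male replicate 4, scored 9.20. At the bottom, WT-labelled fluoxetine female replicate 1 scored 5.28 and was the last one inside, while HT-labelled fluoxetine male replicate 3 scored 5.40. Leaving any 1 of the 3 genes out of the score kept all 15 bulb-rich libraries and at least 14 of the bulb-poor ones.

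**Figure D1:**
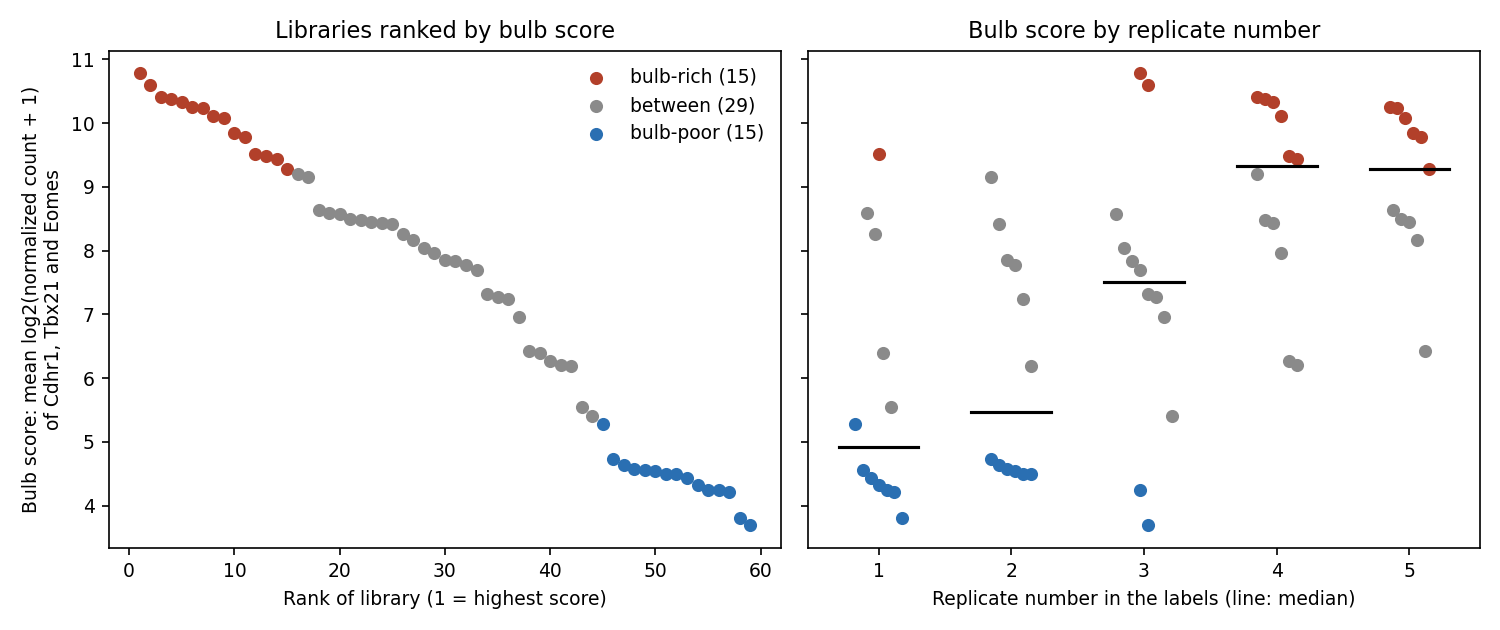
Bulb score (mean log2 of normalized count + 1 of Cdhr1, Tbx21 and Eomes) of each of the 59 libraries, by rank on the left and by the replicate number of the labels on the right, where lines are medians. The score falls gradually from 10.8 to 3.69, and 13 of the 15 bulb-poor libraries are numbered 1 or 2.

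Each set held libraries of both genotype labels, both sexes and every treatment. Bulb-rich libraries comprised 10 labelled HT and 5 labelled WT, 6 female and 9 male, and 5 fluoxetine, 4 lithium and 6 vehicle libraries. Bulb-poor libraries comprised 8 labelled HT and 7 labelled WT, 7 female and 8 male, and 5 of each treatment. Of the 12 groups, 9 had libraries in both sets. WT-labelled fluoxetine females and WT-labelled lithium males had no bulb-rich library, and HT-labelled fluoxetine females had no bulb-poor one. A two-sided Fisher exact test of set against genotype gave p = 0.7104, and the adjusted p over genotype, sex and treatment was 1 for each. The genotype labels were less even at the top of the score. With 10 libraries per set, 9 bulb-rich libraries were labelled HT and 1 WT, against 5 and 5 bulb-poor ones (two-sided Fisher exact test, p = 0.1409).

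Over all 59 libraries the mean score was 7.58 ± 2.47 in HT-labelled (SD, n = 29) and 7.27 ± 1.88 in WT-labelled libraries (SD, n = 30), a difference of 0.32 after averaging over strata of treatment and sex (two-sided permutation test, p = 0.5803). Fluoxetine libraries stood at 7.05 ± 2.18 (SD, n = 19), lithium at 7.41 ± 2.10 (SD, n = 20) and vehicle at 7.79 ± 2.30 (SD, n = 20). The stratified differences were −0.69 for fluoxetine and −0.37 for lithium against vehicle. None of the 5 label comparisons passed, the adjusted permutation p being 0.7803 in each. Within single groups the SD of the score ran from 1.33 to 3.09, larger than any of these differences.

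The replicate number, which the labels do not explain, did differ between the sets. Libraries numbered 1 to 5 gave 1, 0, 2, 6 and 6 bulb-rich and 7, 6, 2, 0 and 0 bulb-poor libraries. Their median scores were 4.92, 5.46, 7.51, 9.32 and 9.28. This was examined after the data were seen; a two-sided Fisher exact test gave p = 4.642e-06, and a permutation test of the score by number within groups gave p = 0.00015, with the number carrying 42.0% of the variance within groups. In 14 of 15 bulb-rich libraries the number was 3 to 5, and in 13 of 15 bulb-poor ones it was 1 or 2. Whatever else moves with that number therefore cannot be told apart from the bulb score between the full sets. Differences are also given below among the 4 libraries numbered 3 (2 against 2), where both bulb-rich libraries were labelled HT and both bulb-poor ones WT, and among the 8 numbered 1 (1 against 7).

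Outside the 3 scoring genes, genes of other bulb cells were among those that separated the sets. Of 16836 genes with a mean of at least 10 normalized counts, 175 were higher by at least 1 on the log2 scale with no overlap between the 15 bulb-rich and 15 bulb-poor libraries, which is 1.04% of the genes described. In the other direction 0 genes (0.0%) met the same rule. Without the size limit, 351 genes (2.08%) were higher and 48 (0.285%) lower with no overlap. The contrast chose the libraries, so nothing is read from these shares. The median difference of all genes was −0.00226. Of the 175 genes, 51 had a mean under 50 and 36 a bulb-poor mean under 10, so some of them passed the filter on low values only through the bulb-rich libraries. All 175 were also higher by at least 1 among the libraries numbered 3, and 142 among those numbered 1. Non-overlap between the full sets already fixed the direction in both, so only the size could differ. The 2 bulb-rich libraries numbered 3 held ranks 1 and 2 of the score, and the 2 bulb-poor ones ranks 56 and 59. These counts are therefore a description too. In bulk RNA, more cells of a type and more RNA per cell cannot be told apart in any of these differences. Levels are not compared between genes, since the values are not per length.

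Glutamatergic output neurons of the bulb were represented by 15 further listed genes, of which 11 passed the filter on low values and 6 were counted as higher. Doc2g, which encodes a C2-domain protein and is a marker of mitral and tufted neurons (ENSMUSG00000024871, plus strand of chromosome 19, 4003313 to 4007005 in GRCm38), stood at 1632, 3027 and 4672 normalized counts (lowest, median and highest) in the bulb-rich libraries. In the bulb-poor libraries it stood at 89.3, 128 and 190. Every bulb-rich library therefore lay above every bulb-poor one, and the difference was 4.38 ± 0.134 (SE, log2). Lbhd2 was higher by 3.78 ± 0.213 and Nmb, the neuropeptide neuromedin B, by 3.19 ± 0.163. The transcription factor Barhl2 ran from 16.9 to 63.1 against 0 to 6.06. Reln, the secreted glycoprotein reelin, which cortical neurons also make, ran from 4411 to 7068 against 2216 to 3030, a difference of 1.12 ± 0.0712. Members that cortical projection neurons share went the other way with overlapping libraries: Tbr1 differed by −0.45 ± 0.0692, Kcng1 by −0.38 ± 0.0586 and Sv2b by −0.35 ± 0.0610. The median over the 11 members was 1.12.

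Interneurons of the bulb gave the list with the highest median difference of the 28 lists, 1.88 over 20 members, with 14 counted as higher. Th, tyrosine hydroxylase, the rate-limiting enzyme of dopamine synthesis (minus strand of chromosome 7, 142892752 to 142931128), stood at 731, 1285 and 1933 normalized counts in the bulb-rich and at 39.8, 63.1 and 106 in the bulb-poor libraries. The sets did not overlap and differed by 4.12 ± 0.147. Among other genes of the dopaminergic phenotype, the dopamine transporter Slc6a3 stood at 37.1 to 102 against 7.35 to 22.2. The vesicular monoamine transporter Slc18a2 overlapped, at 31.9 to 98.8 against 5.36 to 34.2. Ddc, the decarboxylase that follows Th and is also used by serotonin neurons, differed by only −0.03 ± 0.0762. The genes of the dopaminergic phenotype thus differed between the sets to unequal degrees.

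Calcium-binding proteins of bulb interneurons split in the same way. Calb2, calretinin, stood at 2534, 4657 and 7285 normalized counts against 353, 456 and 594, with no overlap and a difference of 3.25 ± 0.124. Scgn, secretagogin, ran from 192 to 535 against 3.35 to 22.6, a difference of 4.93 ± 0.187. Calb1, calbindin, which cortical neurons also carry, overlapped and differed by −0.27 ± 0.0631. Transcription factors of these interneurons were higher without overlap: Sp8 by 2.94 ± 0.137, Tshz1 by 2.21 ± 0.0938, Sp9 by 2.20 ± 0.124, Pax6 by 1.65 ± 0.105 and Meis2 by 1.02 ± 0.0637. Trh, thyrotropin-releasing hormone, was higher by 3.09 ± 0.121.

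Genes of migrating neuroblasts and young neurons were higher in smaller measure, with a median of 0.78 over 19 members and 8 counted. Dcx, doublecortin, a microtubule-binding protein of migrating neurons, stood at 5112, 7350 and 11340 normalized counts in the bulb-rich and at 1774, 2229 and 2870 in the bulb-poor libraries. It did not overlap and differed by 1.74 ± 0.0843. The homeobox genes of the GABAergic lineage followed, with Dlx1 higher by 2.19 ± 0.104, Dlx2 by 1.80 ± 0.113 and Dlx5 by 1.77 ± 0.122. Pbx3 was higher by 2.56 ± 0.123 and Igfbpl1 by 2.14 ± 0.159. Broad markers of immature neurites did not separate the sets: Tubb3 differed by 0.07 ± 0.0313 and Stmn1 by −0.11 ± 0.0403. The 10 genes of proliferating progenitors had a median of −0.06. Of them 0 were counted, which is near the share of 1.04% over all genes described, and nothing is read from it.

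GABA synthesis and transport genes were all above 0 in difference, 6 of 6, with a median of 0.44. Gad1, a glutamate decarboxylase that makes GABA, ran from 11880 to 19800 normalized counts in the bulb-rich and from 6896 to 9662 in the bulb-poor libraries, and did not overlap (0.93 ± 0.0611). Gad2, its paralog, overlapped at 6103 to 8049 against 4686 to 8436. Slc6a11, a GABA transporter found mainly on astrocytes, was higher by 1.02 ± 0.0632 with no overlap.

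**Figure D2:**
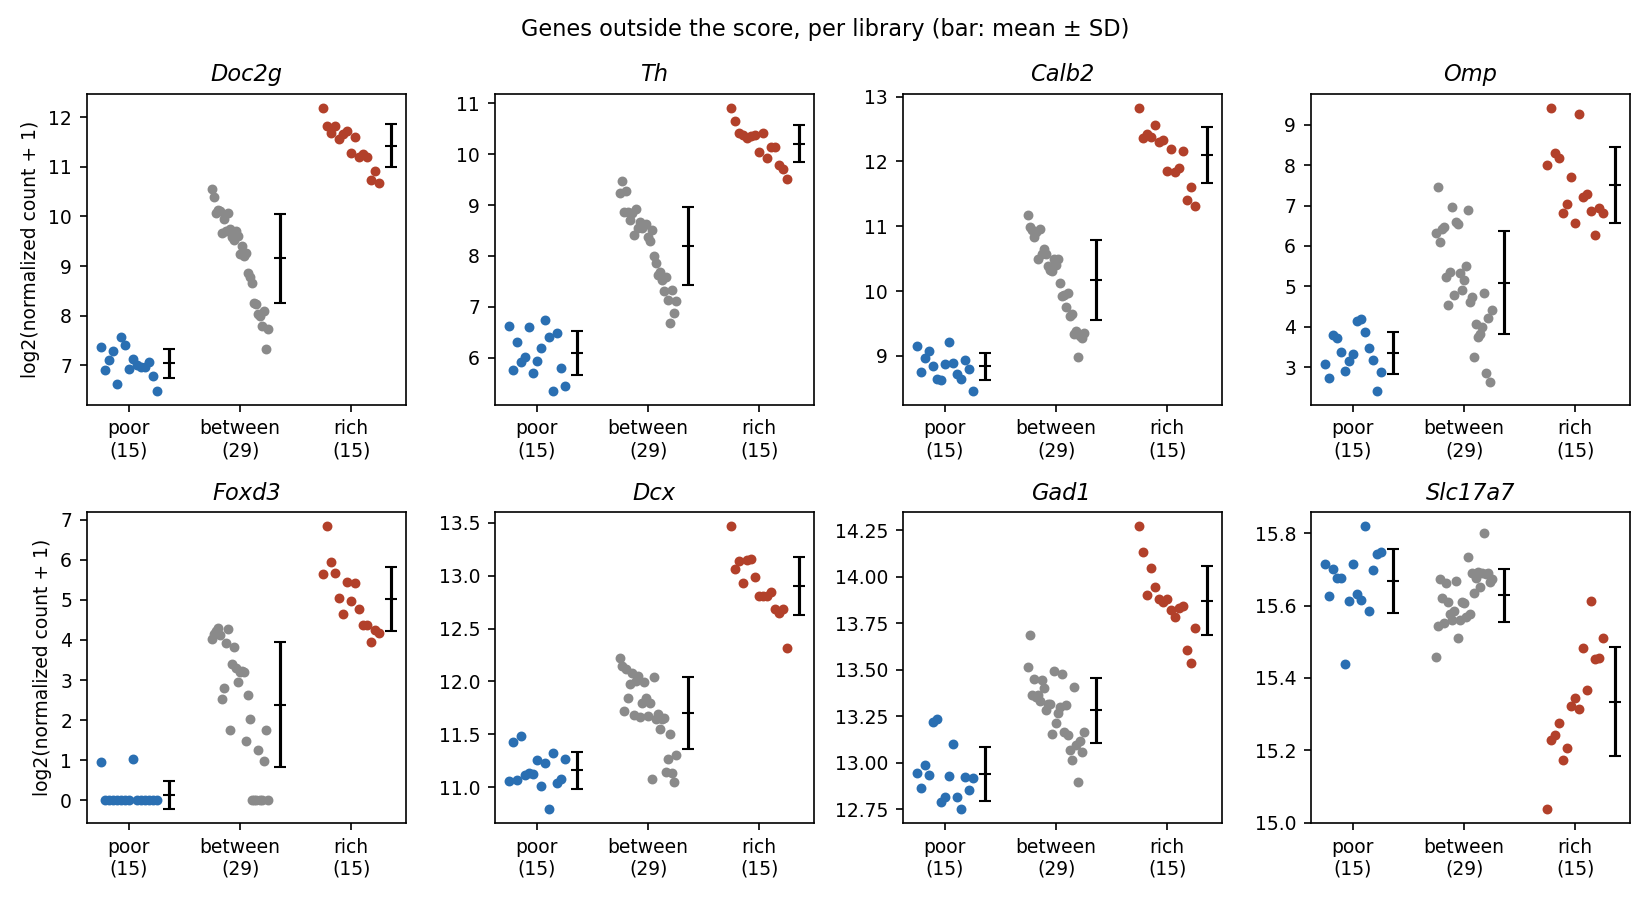
Levels of 8 genes outside the score, as log2(normalized count + 1), in each bulb-poor (15), between (29) and bulb-rich (15) library, with points in each set ordered from the highest score at the left and mean ± SD as bars. Doc2g, Th, Calb2, Omp, Foxd3, Dcx and Gad1 show no overlap between the outer sets, while Slc17a7 overlaps with a lower mean in the bulb-rich set.

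Genes of the olfactory nerve were higher too, but unevenly. Omp, olfactory marker protein of mature sensory neurons, stood at 76.4, 147 and 687 normalized counts in the bulb-rich and at 4.36, 9.11 and 17.4 in the bulb-poor libraries. The sets did not overlap. Stoml3, a membrane protein of sensory cilia, ran from 21.7 to 257 in the bulb-rich libraries and was listed at 0 in 7 of 15 bulb-poor ones, none of which exceeded 4.80. Foxd3, a transcription factor of neural crest derivatives such as ensheathing glia, ran from 14.4 to 114 and was listed at 0 in 13 of 15 bulb-poor libraries. The other 8 genes of the sensory neuron list overlapped between the sets, among them the transduction genes Cnga2, Gnal and Adcy3, and the list median was −0.03. Gnal and Adcy3 are also expressed in forebrain neurons. Of 10 ensheathing glia genes, 3 were counted: Foxd3, Prss56 (27.1 to 109 normalized counts against 4.67 to 19.5) and Fabp7 (2455 to 9166 against 733 to 1674), a fatty acid-binding protein that astrocytes also carry.

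Within the bulb-rich set the spread differed from gene to gene. The SD of the log2 level over the 15 libraries was 1.02 for Stoml3, 0.95 for Omp and 0.80 for Foxd3, against 0.43 for Doc2g, 0.43 for Calb2, 0.41 for Scgn and 0.37 for Th. Prss56 (0.54), Fabp7 (0.56) and Ms4a15 (0.54) lay between. The highest bulb-rich library held 8.99 times the Omp of the lowest, but 2.86 times the Doc2g. Th and Calb2 kept close to Doc2g from library to library, with an SD of the log2 ratio of 0.12 and 0.13. That ratio had an SD of 0.22 for Scgn, 0.24 for Fabp7, 0.40 for Prss56, 0.51 for Foxd3 and 0.74 for Omp. These libraries were chosen for high bulb RNA, which limits the range of all genes that follow the score, and the SDs are given as a description.

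The genes that reached the highest differences were not all on these lists. Among genes with a mean of at least 50, the 15 largest differences ran from 3.17 to 7.18, and none of the 15 overlapped. At the top was Ms4a15, a member of the MS4A family of membrane proteins (minus strand of chromosome 19, 10978307 to 10993250), with 343, 751 and 1123 normalized counts against 0.475, 2.83 and 39.8, a difference of 7.18 ± 0.344. Dnah11, an axonemal dynein heavy chain, ran from 151 to 818 against 5.36 to 34.2. Adamts19, a secreted metalloprotease, was higher by 4.47 ± 0.177 and Frmd7, a FERM-domain protein, by 4.46 ± 0.153. Shisa3 was higher by 4.36 ± 0.189 and Vipr2, a receptor for vasoactive intestinal peptide, by 3.85 ± 0.135. Ush1g, Ppm1j and Lgr5, a receptor for R-spondins, were higher by 3.63, 3.40 and 3.17; Scgn, Doc2g, Omp, Th, Calb2 and Nmb complete the 15.

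Cortical genes showed small, overlapping differences in the other direction. All 15 genes of cortical excitatory neurons had a lower mean in the bulb-rich libraries, with a median of −0.44, and all 15 overlapped between the sets. Slc17a7, the vesicular glutamate transporter of cortical projection neurons, stood at 33640, 40980 and 50070 normalized counts against 44420, 52370 and 57830, a difference of −0.33 ± 0.0449. Neurod2 differed by −0.55 ± 0.0745 and Nptx1 by −0.60 ± 0.0984. Among the libraries numbered 3 the list median was −0.73, and among those numbered 1 it was −0.03.

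Interneurons of the cortex divided. Pvalb, parvalbumin, differed by −0.71 ± 0.0995, Sst, somatostatin, by −0.63 ± 0.0898 and Lhx6 by −0.56 ± 0.0896, each with overlap. Adarb2, a gene of interneurons from the caudal ganglionic eminence, was higher without overlap, by 0.90 ± 0.0603. Genes of cortical layers had medians of −0.20 for layers 2 to 4 and −0.04 for layers 5 and 6, where 8 members lay on each side of 0, from −0.77 to 1.65. Among the libraries numbered 3 the medians were −0.44 and 0.44, and among those numbered 1 they were −0.009 and −0.13. Single members stood apart: Mdga1, an adhesion molecule, was higher by 1.10 ± 0.0804 and Syt6, a synaptotagmin, by 1.65, both without overlap.

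**Figure D3:**
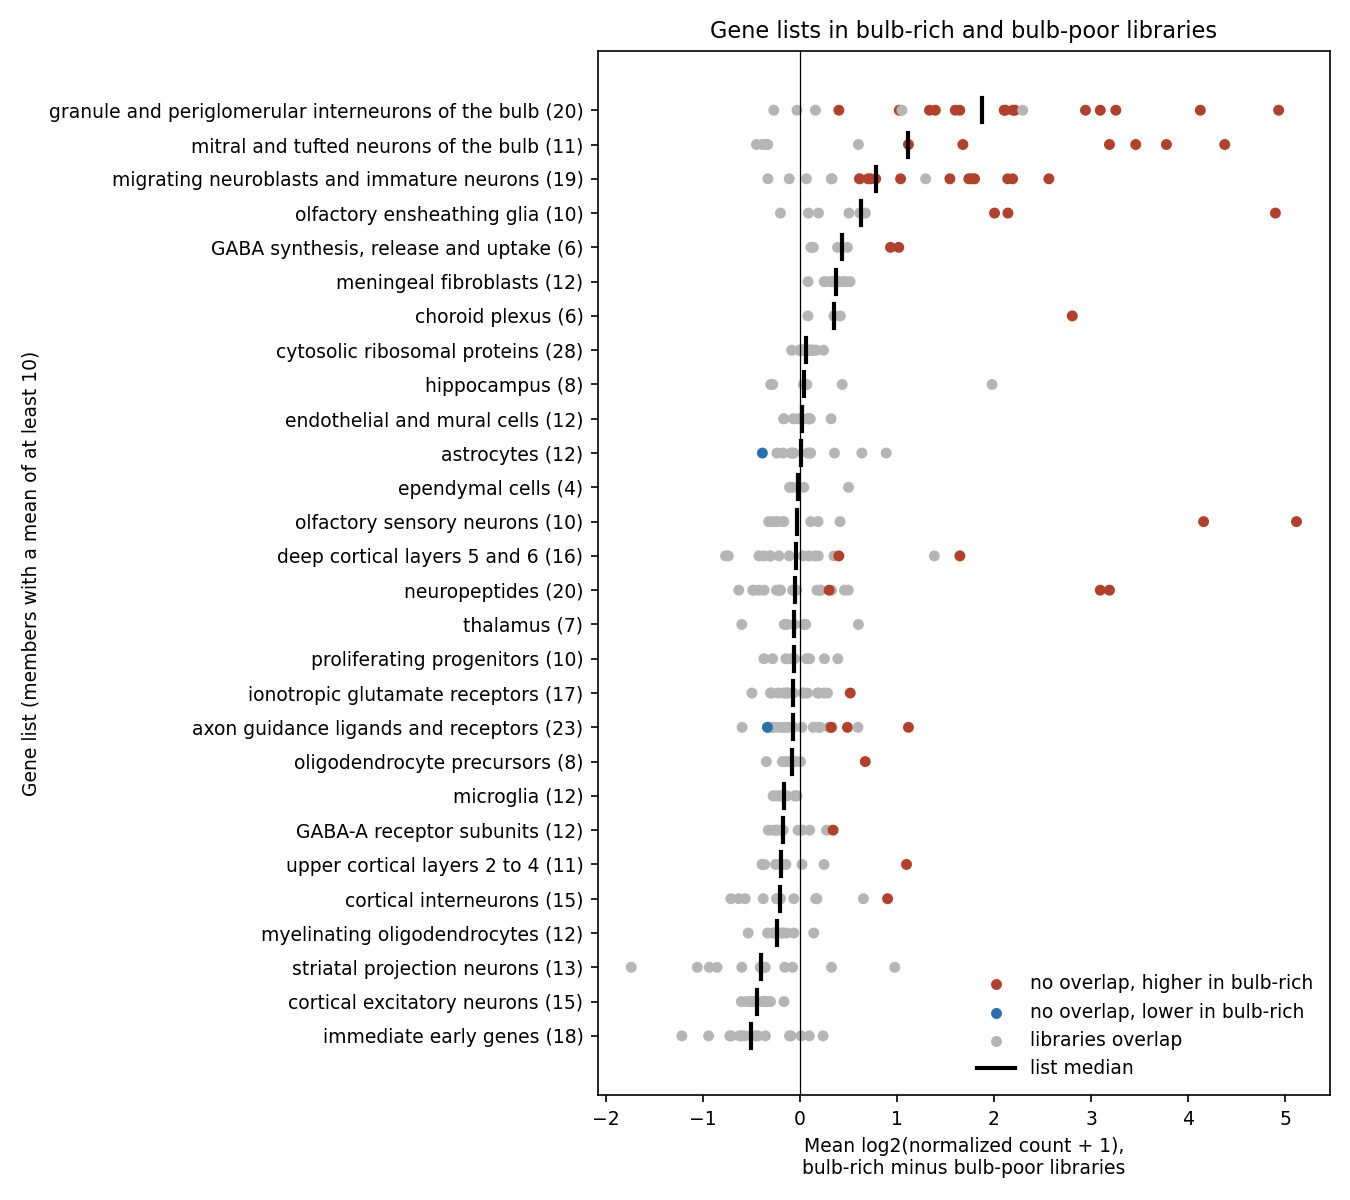
Differences in mean log2(normalized count + 1) between the 15 bulb-rich and 15 bulb-poor libraries for the genes of 28 lists, 1 point per gene with a mean of at least 10 and a bar at each list median. The bulb interneuron list has the highest median (1.88) and the immediate early gene list the lowest (−0.50), and points without overlap lie almost wholly on the positive side.

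Immediate early genes, which neuronal activity and handling induce, had the lowest list median, −0.50 over 18 genes, with 15 below 0 and all 18 overlapping. Arc stood at 689, 1080 and 4568 normalized counts against 713, 3636 and 14660, so the bulb-poor libraries were mostly high but spread over the whole range. Among the libraries numbered 3 the median was 0.11, and among those numbered 1 it was −0.01. The replicate number differed between the sets, and whether it has a part in the difference of this list was not tested.

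Striatal projection neuron genes had a median of −0.40, with 13 of 13 overlapping. Their mean log2 level ran from 7.55 to 8.55 in the bulb-rich and from 7.39 to 10.9 in the bulb-poor libraries. WT-labelled lithium male replicate 2 and HT-labelled lithium male replicate 1, both bulb-poor, were among the 8 libraries that exceeded the median level of this list by over 5 robust SDs. Without them the list median was −0.14. Drd1, the D1 dopamine receptor, stood at 83.0 to 288 against 141 to 1637.

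Glial and other non-neuronal genes went in both directions. Of 12 astrocyte genes 6 were above and 6 below 0, with a median of 0.01. Agt, angiotensinogen, was higher by 0.89 ± 0.141 and Gfap, the filament protein of reactive astrocytes, by 0.64 ± 0.0722, both with overlap. Slc1a2, the main glutamate transporter of astrocytes, was lower without overlap, at 79150 to 105800 normalized counts against 113900 to 135700. Of the myelin genes 11 of 12 were below 0 (median −0.23). Their median was 0.44 among the libraries numbered 3 and −0.51 among those numbered 1. For microglia, 12 of 12 genes were below 0 between the sets (median −0.16). The microglial median was −0.30 among the libraries numbered 3 and −0.41 among those numbered 1. In the 29 libraries between, however, 11 of 12 had a slope above 0, with 0 passing the test described below. For meningeal fibroblasts, 12 of 12 were above 0 (median 0.37). The meningeal median was 0.14 among the libraries numbered 3 and −0.51 among those numbered 1. Of the choroid plexus genes, Aqp1, a water channel, was counted (2.81 ± 0.154), while Ttr, the transthyretin that defines that tissue, overlapped at 2.90 to 3501 against 0 to 349. Of the astrocyte, myelin, microglial and meningeal genes 0 were counted. Over all genes described the share was 1.04%, so nothing is read from this 0.

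The 15 genes with the most negative difference, among those with a mean of at least 50, ran from −1.41 to −0.93, and all 15 overlapped. They were Krt80, Gm9794, Arc, Scn4b, Gm40518, Sebox, Fam205a3, Xist, Drd1, Gm10635, Nxph3, Arhgap25, Igfn1, Egr2 and Ppp1r1b. Krt80, a keratin, stood at 26.4 to 120 normalized counts against 87.4 to 270. Scn4b, a sodium channel subunit of striatal neurons, Drd1 and Ppp1r1b are genes of striatal projection neurons, and Arc and Egr2 are immediate early genes. Xist, the X-inactivation transcript, follows the sex of the library.

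The libraries between the sets give a test, since they entered neither. In these 29 libraries each gene was fitted by limma against the score, with genotype label, treatment and sex in the model. Of 16836 genes, 1180 passed an adjusted p of 0.05, 7.01% of those tested: 518 rose with the score (3.08%) and 662 fell (3.93%). Before adjustment, 3290 genes had a limma p under 0.05. Doc2g rose by 0.85 ± 0.0332 log2 per unit of score (SE, n = 29 libraries, limma adjusted p = 1.427e-17). Ms4a15 rose by 1.15 ± 0.0677, Shisa3 by 0.72 ± 0.0487, Th by 0.71 ± 0.0466 and Calb2 by 0.58 ± 0.0339. Cacng5, an AMPA receptor auxiliary subunit, rose by 0.42 ± 0.0310, Tshz1 by 0.34 ± 0.0253 and Ptpro, a receptor phosphatase, by 0.25 ± 0.0189. Each of the 15 genes with the largest difference between the sets rose here too, and 0 of the 15 with the most negative difference fell (2 at an unadjusted limma p under 0.05). Among those that rose, Ms4a15 and Omp had a bulb-poor mean under 10 normalized counts, and their part in this count is a description.

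Of the 139 counted genes with a bulb-poor mean of at least 10 normalized counts, 121 rose with the score in the 29 libraries and 0 fell. The other 36, whose bulb-poor mean was lower and some of which passed the filter only through libraries with a high score, gave 32 and 0, and are given as a description. By list, 14 of 20 bulb interneuron genes rose and 0 fell, as did 11 of 19 neuroblast genes, 6 of 10 ensheathing glia genes and 2 of 10 sensory neuron genes, namely Omp and Stoml3. Of 11 mitral and tufted genes 6 rose and 3 fell (Kcng1, Nrn1 and Sv2b). Median slopes were 0.31, 0.11, 0.12, 0.00498 and 0.15 in that order, against 0.000163 over all genes. These lists keep members with a bulb-poor mean under 10, such as Barhl2, Lbhd2, Foxd3, Omp and Stoml3. The part of such members in the list counts is a description. Prokr2, a receptor for the peptides that guide neuroblasts into the bulb, was counted between the sets but did not pass here (slope 0.26 ± 0.0830, limma adjusted p = 0.06124).

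Slopes in the negative direction were shallow. Kcnt2, a sodium-activated potassium channel, fell by 0.10 ± 0.0155 log2 per unit of score (limma adjusted p = 6.671e-05) and Pgm2l1 by 0.09 ± 0.0150. Phf24, D430041D05Rik and Adcy1, an adenylyl cyclase, each fell by 0.09, Gas7 by 0.08 and Kcnq3, a subunit of the M-type potassium channel, by 0.07. Of the cortical excitatory genes 7 of 15 fell and 0 rose, among them Slc17a7 by 0.04 ± 0.0106, Neurod6 by 0.11 ± 0.0199 and Camk2a by 0.06 ± 0.0159. Of the GABA-A receptor subunits 6 of 12 fell, and of the ionotropic glutamate receptors 5 of 17 fell and 2 rose. Immediate early genes gave 3 of 18 (Ier2, Dusp6 and Bdnf) that fell. Their median slope was −0.19, with 2 of 18 above 0 and 11 of 18 lower at an unadjusted limma p under 0.05. Striatal, microglial, myelin and ribosomal protein genes gave 0 calls in either direction, with 0 of 13, 2 of 12, 1 of 12 and 4 of 28 at an unadjusted limma p under 0.05. Over all genes tested, 3290 of 16836 were at an unadjusted limma p under 0.05 in either direction. The share called was 7.01%, so nothing is read from the 0 calls in these lists. Without passing the test, 3 of these lists lay on the other side of 0 from their set differences: slopes were above 0 in 11 of 13 striatal genes (median 0.11), 12 of 12 myelin genes (median 0.03) and 11 of 12 microglial genes (median 0.03).

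The number of calls changed with single libraries. Without HT-labelled lithium male replicate 4 it was 534, and without HT-labelled lithium female replicate 2 it was 688. Without the 6 libraries of this set with high striatal markers it was 404.

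**Figure D4:**
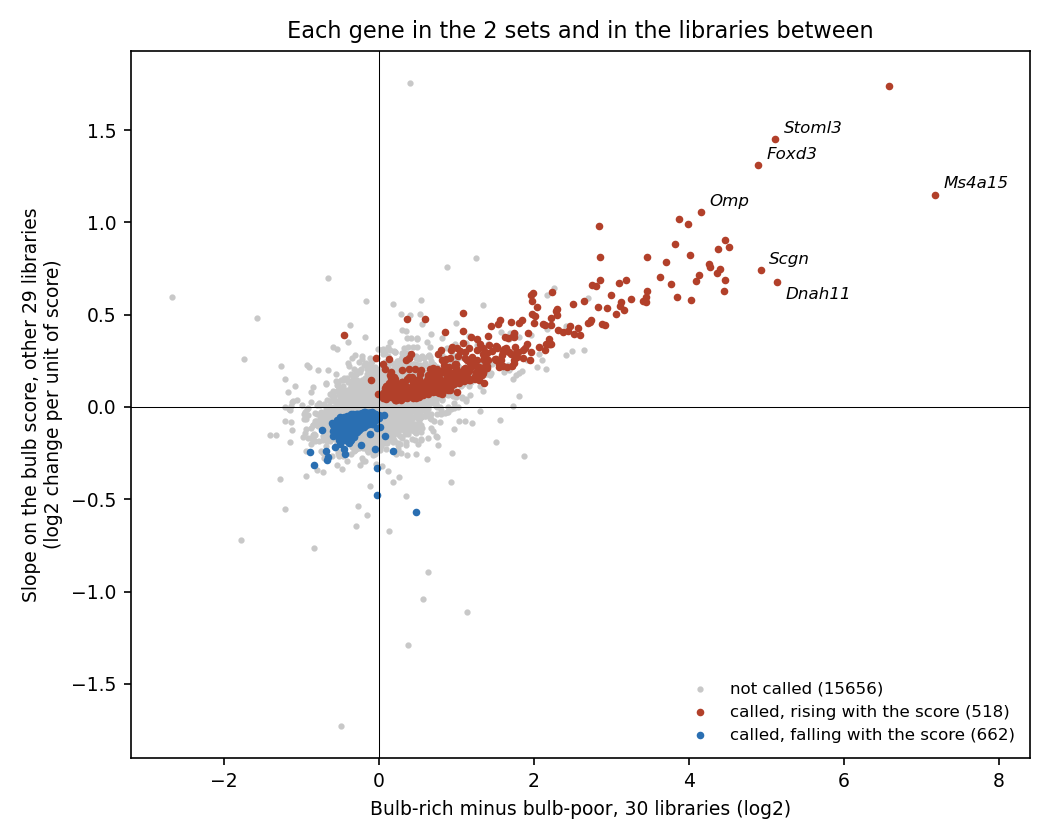
Each of 16836 genes by its difference between 15 bulb-rich and 15 bulb-poor libraries (x axis, log2) and by its slope on the bulb score in the other 29 libraries (y axis, log2 per unit of score), coloured where the slope passed a limma adjusted p of 0.05. The 518 rising genes reach from near 0 to over 7 on the x axis, and the 662 falling genes lie close to 0.

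Chd8 served as a check of the genotype labels within each set. In the bulb-rich libraries it stood at 5820 ± 413 normalized counts in those labelled HT (SD, n = 10, from 5115 to 6545) and at 3685 ± 262 in those labelled WT (SD, n = 5, from 3337 to 4057). The groups did not overlap and differed by 0.66 on the log2 scale (exact two-sided permutation p = 0.000333, the smallest that 10 against 5 allow). In the bulb-poor libraries it stood at 6059 ± 353 (SD, n = 8) and 3395 ± 325 (SD, n = 7), a difference of 0.84 (exact two-sided permutation p = 0.0001554, the smallest that 8 against 7 allow). A loss-of-function allele whose RNA decays would place HT below WT, so genotype is given throughout as labelled. Over all 59 libraries the genotype difference in Chd8 changed by −0.03 ± 0.0130 log2 per unit of score, which did not pass (limma adjusted p = 0.2052). Chd8 itself had a slope of −0.03 ± 0.0175 in the 29 libraries between (limma adjusted p = 0.4529).

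Adding the score to the model of all 59 libraries, with a mean for each of the 12 groups, changed how many genes the labelled comparisons called. For genotype, 1926 of 16839 genes passed (11.4%), 840 higher (4.99%) and 1086 lower (6.45%) in HT-labelled libraries, against 1344 without the score. For lithium, 1194 passed (7.09%), 709 higher (4.21%) and 485 lower (2.88%), against 742 without it. For fluoxetine, 30 passed (0.178%), 14 higher (0.0831%) and 16 lower (0.095%), against 11 without it. Leaving out single libraries moved the fluoxetine count of 30 to between 13 and 64, a range wider than the difference from 11 to 30. It moved the genotype count to between 1676 and 2515 and the lithium count to between 952 and 1506. These ranges too were wider than the change made by adding the score.

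Estimates of single genes stayed close while their errors fell or held. Smyd5 was lower in HT-labelled libraries by −0.27 ± 0.0266 with the score and by −0.28 ± 0.0359 without it, and its limma adjusted p was 1.797e-10 and 2.374e-07. Orai2, a calcium channel subunit, differed by −0.22 ± 0.0215 and −0.23 ± 0.0290. Chmp2a, an ESCRT component, had the same error in both, 0.0145 and 0.0144. After lithium, Ctnnb1, which encodes beta-catenin, was lower by −0.18 ± 0.0224 with the score and by −0.18 ± 0.0227 without. After fluoxetine, Sqle, squalene epoxidase of cholesterol synthesis, differed by −0.17 ± 0.0319 with the score (limma adjusted p = 0.00678) and did not pass without it (−0.15 ± 0.0374, limma adjusted p = 0.07637). Stard4, a sterol transfer protein, passed in both fits (−0.21 ± 0.0336 and −0.19 ± 0.0389).

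The genotype difference itself changed with the score in 647 genes (3.84% of 16839), 204 (1.21%) with a more positive and 443 (2.63%) with a more negative difference as the score rose. This count rested on few libraries. It was 0 without the 8 libraries of high striatal markers (2957 genes at an unadjusted p under 0.05, limma), 0 with the replicate number as a block (3015 genes at an unadjusted p under 0.05, limma), and 0 when any of WT-labelled vehicle male replicate 2, WT-labelled vehicle female replicate 3 or WT-labelled fluoxetine male replicate 3 was left out (2937 to 3121 genes at an unadjusted p under 0.05, limma).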

How the data were processed

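RNA of 59 libraries had been sequenced with a stranded poly(A) kit, per the labels' protocols. The authors deposited 1 table of 51456 genes whose values were taken as a normalized signal (reads per gene scaled by library); whole reads could not be recovered, so no count model was fitted. The build GRCm38, DESeq2 1.19.11, Salmon 0.11.2 and R 3.6.0 are named without role or order, per the submitters' processing notes. Symbols were matched for 51285 identifiers, and coordinates come from the GENCODE annotation of GRCm38. Normalized counts summed to 30.3 to 33.7 M per library, and estimated depths were 25.8 to 36.9 M reads.

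Values were analysed as log2(value + 1) for 16839 genes with a mean of at least 10; the 3 scoring genes were left out of the set difference and the slope. The fold scale understates changes of low genes. A gene was counted where the sets did not overlap and differed by at least 1. Slopes and labelled comparisons used limma 3.58.1 (R 4.3.3) with trend and robust shrinkage and Benjamini-Hochberg adjustment at 0.05. Permutation tests used 100000 resamples or full enumeration. On simulated data the slope fit recovered 44.8, 76.1 and 89.4% of genes with slopes of 0.1, 0.2 and 0.4.

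Named genes were Chd8, the 15 largest and 15 smallest set differences (mean of at least 50), the 8 smallest p per direction for the slope, up to 5 members per list by size of difference, and up to 4 per direction in each labelled comparison. Some named genes are not reported here. Other list members named were chosen after their values were seen. The members and lists were chosen with earlier results of these data known. Alternatives were another pseudocount, no filter, TMM factors, no trend, a replicate block, 10 libraries per set, fewer scoring genes, and each library left out.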

Additional observations from a re-analysis of the deposited data

Results flagged for a closer look

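Of 24 checks for a library standing apart within a group of 4 or 5, 2 were positive, and chance gives about 1 in 20. The score of the WT-labelled vehicle females had 1 library far below the others, at 4.24, which is bulb-poor replicate 3. Chd8 in the HT-labelled vehicle females had 1 library far below the others, at 5115 normalized counts, which still lay above every WT-labelled library of either set.

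In 8 genes named by the rule for smallest p, the genotype difference changed with the score (limma adjusted p = 0.01921 for each, all 59 libraries, change in log2 per unit of score). It became more negative with the score in Nfix (−0.07178), Igfbp4 (−0.09393), Cep170b (−0.05596) and Klhdc3 (−0.0441). It became more positive in Aasdh (0.1094), Ptpn14 (0.09716), Plekhn1 (0.05576) and Rbm39 (0.04552). With the replicate number as a block no gene passed for this term, nor without the 8 libraries of high striatal markers.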

How the results depend on the processing

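The 175 counted genes became 274 (270 higher, 4 lower) with 10 libraries per set and 880 (642 higher, 238 lower) in the 2 against 2 libraries numbered 3, where non-overlap is a weaker demand; other settings gave 166 to 199, and 169 to 197 when each library was left out in turn. Of 6594 values of 157 named set differences under alternatives, 15 changed sign, in 13 genes of which none was counted: 13 values among the libraries numbered 3, 1 with 10 libraries per set and 1 without WT-labelled fluoxetine male 5. A further measure, a move of more than 1 SD, was met by 84 values, 83 of them among the libraries numbered 3. Chd8 in the bulb-rich set differed by 0.6882 with 10 libraries per set, where 9 against 1 library cannot give an exact permutation p below 0.1. Leaving out single libraries, it ranged from 0.6237 to 0.6941 there and from 0.7965 to 0.8711 in the bulb-poor set. The score differences ranged from 0.1697 to 0.4915 for genotype, 0.01828 to 0.3327 for sex, −0.945 to −0.4623 for fluoxetine and −0.6226 to −0.1556 for lithium against vehicle, and 0.09018 to 0.5389 for lithium against fluoxetine.

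Calls for the slope ranged from 534 to 1303 with single libraries left out and were 404 without the libraries of high striatal markers. Genotype calls ranged from 1676 to 2515 and lithium calls from 952 to 1506; lithium gave 778 without a filter and 742 without the score. Fluoxetine ranged from 13 to 64, with 11 without a filter, 11 without the score and 4 without the same libraries. Single libraries that moved it past 1.5 times were HT-labelled fluoxetine male 5 (13), fluoxetine female 1 (14), vehicle female 2 (15) and vehicle male 1 (52), and WT-labelled fluoxetine male 1 (13), 3 (55) and 5 (64), vehicle female 4 (18) and 5 (14) and vehicle male 2 (14). The genotype by score term ranged from 0 to 1694, with 121 without a filter, 403 without trend and robust shrinkage and 0 without those same libraries; 17 single libraries moved it past 1.5 times, the highest counts being 1694 without WT-labelled fluoxetine male 5 and 1338 without WT-labelled vehicle male 5. The causes were not tested.

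With the replicate number as a replicate block the calls were 968 for the slope, 1931 for genotype, 1323 for lithium, 48 for fluoxetine and 0 for genotype by score. Same-numbered libraries of different groups deviated together only weakly (median r 0.0479 over 319 pairs, 123 of them over 0.1), and 19 of 59 libraries correlated best with their own number, so the numbers were not taken to pair the samples. With TMM factors the median gene shifted by −0.0061. Depth is estimated and limits the genes listed at or near 0 in the bulb-poor libraries most.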

Other observations

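Single genes outside the lists are given here; they were chosen after their values were seen, with no count of the other members of their families. Subunits of nicotinic acetylcholine receptors named here differed in both directions. Chrna3 was higher by 2.22 ± 0.166 (SE, log2) in the 15 bulb-rich than in the 15 bulb-poor libraries, and its frequent partner Chrnb4 stood at 22.1 to 107 normalized counts against 0.923 to 13.2. Chrna10 ran from 60.4 to 138 against 0 to 16.9. Chrnb3 was lower without overlap, at 26.5 to 66.7 against 67.5 to 120, a difference of −0.89 ± 0.106. Chrna5 overlapped, at 32.4 to 77.5 against 54.8 to 142. Lgr6, a relative of Lgr5, was higher by 2.88 ± 0.111 and the ligand Wnt7a by 1.03 ± 0.0880, both without overlap. The ligand Wnt5a stood at 562 to 948 normalized counts against 287 to 422.

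Among the 48 genes that were lower without overlap, differences ran from −0.89 to −0.16. All 48 were below 0 among the libraries numbered 3, which non-overlap between the full sets already requires. In the 29 libraries between, 27 of them fell with the score, where 3.93% of all genes tested did. Grm3, a metabotropic glutamate receptor, differed by −0.41 ± 0.0458, Kif5c, a kinesin motor, by −0.40 ± 0.0436 and Scn8a, a sodium channel, by −0.32 ± 0.0370. These sets were chosen by the score, so the values are a description.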
